A study of Mus musculus with 6 samples.

Results

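The enzymes that carry acetyl-CoA units through mevalonate to squalene were examined in liver tissue of male mice on regular or soy-enriched chow. Members were taken as the array probes whose RefSeq accession belongs to Hmgcs1, Mvk, Pmvk, Mvd, Idi1, Fdps, Ggps1, Fdft1 or Sqle. All 9 genes were found, with 16 probes among the 56605 probes of the array and the 22911 genes that could be named. The control group held 3 mice on 100% granulated regular food, and the soy group 3 mice on 75% regular food mixed with 25% soy bean powder, fed for 4 weeks from an age of 12 weeks. No strain, transgene or other treatment is given in the sources used here. Total RNA from whole tissue of the right hepatic lobe was hybridized in 1 colour (Cy3) to Agilent mouse arrays, with 1 array per mouse.

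Control 1, control 2 and soy 1 lay on slide 1, soy 2 was the only array of the series on slide 2, and control 3 and soy 3 lay on slide 3. Before the pathway is described, a difference between the groups of arrays has to be given. Spots well above background made up 62.4%, 61.3% and 64.4% of the spots on control 1, 2 and 3, but 52.8%, 53.9% and 54.8% on soy 1, 2 and 3, and the part of this difference in the results was not tested. All 16 probes of the pathway were well above background on all 6 arrays, and none of their spots was marked as an outlier. The liver label was borne out by the hepatocyte markers, all 8 of which (of 9 listed, Tf having no matched probe) were well above background on every array, with albumin (Alb) the brightest.

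The mevalonate pathway builds isoprenoid units from acetyl-CoA. Hmgcs1 makes HMG-CoA in the cytosol, and after mevalonate has formed, Mvk and Pmvk phosphorylate it and Mvd decarboxylates it to isopentenyl diphosphate. Idi1 converts this unit to its isomer, Fdps joins units to farnesyl diphosphate, Ggps1 lengthens that to geranylgeranyl diphosphate, Fdft1 condenses farnesyl diphosphate to squalene, and Sqle oxidizes squalene on the way to cholesterol. In the liver these genes are best known as targets of SREBP-2, a transcription factor that is released from the endoplasmic reticulum when sterols run low, and that acts at sterol regulatory elements together with NF-Y, which binds CCAAT boxes, and Sp1, which binds GC boxes.

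Hmgcs1 signal ranged most widely between arrays, soy and control values of Mvd did not overlap, and the change of Mvk was closest to 0. Differences between these genes were not tested. Their promoter windows are shown so that the regulatory letters can be set side by side. Each runs 5′ to 3′ on the gene's strand from 250 bases before to 50 after the RefSeq start (GRCm38.p6), with capitals marking matches, on either strand, to CACCCCAC (the core of a sterol regulatory element), ATTGG (an inverted CCAAT box) and GGGCGG (a GC box). The windows are chr13:119690101-119690400 (+) for Hmgcs1, chr8:122443373-122443672 (-) for Mvd and chr5:114444019-114444318 (+) for Mvk.
Hmgcs1: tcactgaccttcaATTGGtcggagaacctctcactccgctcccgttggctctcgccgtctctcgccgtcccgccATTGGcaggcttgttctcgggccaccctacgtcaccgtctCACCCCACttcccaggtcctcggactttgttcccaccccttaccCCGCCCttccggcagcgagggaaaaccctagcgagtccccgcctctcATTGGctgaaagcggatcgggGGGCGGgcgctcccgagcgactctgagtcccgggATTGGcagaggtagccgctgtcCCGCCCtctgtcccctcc
Mvd: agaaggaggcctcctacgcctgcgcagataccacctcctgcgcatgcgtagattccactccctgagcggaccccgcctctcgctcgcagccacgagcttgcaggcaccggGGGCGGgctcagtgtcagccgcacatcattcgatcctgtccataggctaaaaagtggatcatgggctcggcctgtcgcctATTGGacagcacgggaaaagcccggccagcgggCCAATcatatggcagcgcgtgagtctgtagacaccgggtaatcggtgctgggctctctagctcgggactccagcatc
Mvk: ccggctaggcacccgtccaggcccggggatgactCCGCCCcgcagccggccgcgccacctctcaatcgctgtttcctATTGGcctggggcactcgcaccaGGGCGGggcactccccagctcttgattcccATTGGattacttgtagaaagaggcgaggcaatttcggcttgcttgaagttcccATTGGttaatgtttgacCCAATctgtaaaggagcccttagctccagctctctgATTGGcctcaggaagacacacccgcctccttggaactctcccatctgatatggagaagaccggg

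RefSeq windows were matched for 6 of the 9 genes (Hmgcs1, Mvk, Pmvk with 2 windows, Mvd, Idi1 and Ggps1), and no match overlapped another. A CCAAT box in either orientation was found in 6 of the 7 windows, all but the second of Pmvk, against 37.4% of the 32851 promoter windows of that length. For Mvk there were 5 such boxes, 4 of them in the orientation ATTGG with their first base at -173, -120, -67 and -14 relative to the start. The GC box was found in 4 of the 7 (35.7% of all windows). The letters CACCCCAC were found once, in Hmgcs1 at -136, as in 2.87% of all windows. Such a match describes letters in a window and is not a measured binding site.

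In the comparison of soy with control livers, none of the 9 genes passed the test. Fdft1 and Mvd were the members whose soy values all lay above their control values, by 1.36-fold and 1.32-fold, while Fdps had the only negative change, 0.833-fold. Signal is given as normalized log2 intensity of the brightest probe of each gene, n = 3 arrays per group, and change as soy minus control with its standard error from limma and the Benjamini-Hochberg adjusted p over all probes. To pass, a probe needed an adjusted p below 0.05 together with a fold above 1.5 or below 0.66, which 198 of 56605 probes had (0.350%), as did 0.673% of the 13514 genes whose brightest probe was well above background on all arrays. By an unadjusted p under 0.05, 2 of the 9 genes were higher (Fdft1 and Mvd) and 0 lower, where 10.8% and 9.29% of those 13514 genes were. None of the 9 changes reached the fold threshold. The methods describe 3 mice per group and the labels only numbered replicates, so the p-values measure the spread between these samples. In whole tissue fewer cells of a type and less RNA per cell cannot be told apart.

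**Figure D1:**
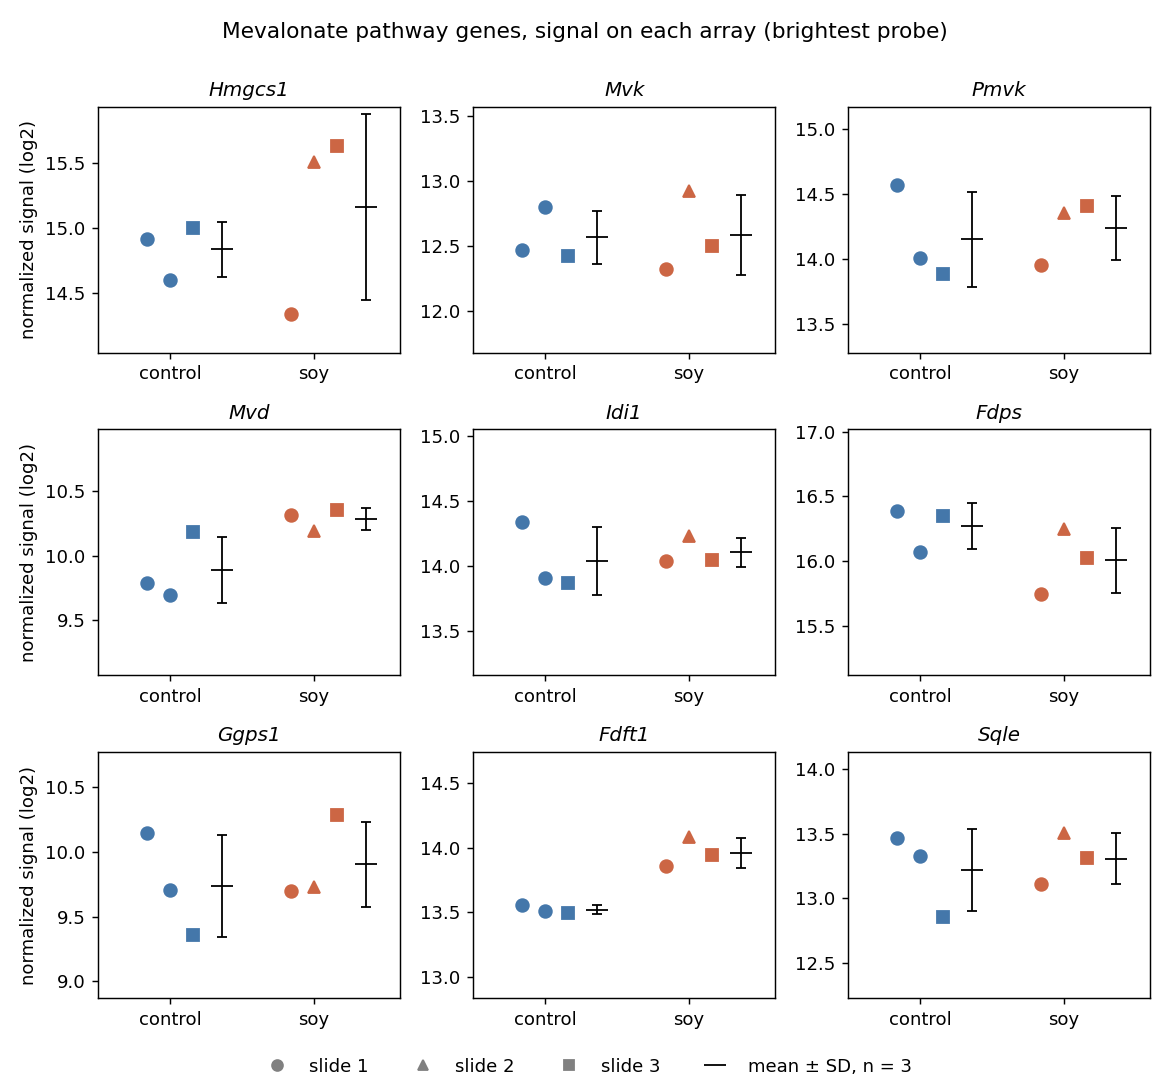
Normalized signal (log2) of the 9 genes on each array by the brightest probe, with control arrays in blue, soy arrays in orange, the slide shown by the marker's shape, and mean ± SD (n = 3) as black bars. All panels span the same range of log2 units, so that spread can be compared: the soy points clear all control points only for Mvd and Fdft1, and Hmgcs1 runs from 14.34 on soy 1 to 15.64 on soy 3.

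The enzyme that commits farnesyl diphosphate to sterols had the smallest adjusted p of the 9 genes. Fdft1 (NM_010191) was 13.56, 13.51 and 13.49 on control 1, 2 and 3 and 13.85, 14.08 and 13.94 on soy 1, 2 and 3. Every soy array was above every control array, and the control arrays lay close together. The change was 0.44 (SE 0.10, 95% interval 0.21 to 0.67, adjusted p = 0.146), so that it missed the threshold. Its dimmer probe of the same transcript gave nearly the same size, with control values of 12.29, 12.62 and 12.60, soy values of 12.99, 13.13 and 12.73, and a change of 0.45 (SE 0.14, adjusted p = 0.287), again without overlap. Within slide 1 the brighter probe differed by 0.32 and within slide 3 by 0.45, and the dimmer probe by 0.54 and 0.14. The change of Fdft1 kept between 0.37 and 0.49 under the alternatives tried. Of these, the Agilent processed signal gave an adjusted p under 0.05 (0.0290), still with a fold under 1.5. Under that setting 13138 probes passed, 11924 of them higher in soy, and the median of all genes was 0.090. With slide as a block the adjusted p of Fdft1 was 0.363.

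Mvd (NM_138656), measured by a single probe, makes isopentenyl diphosphate. Control livers gave 9.79, 9.70 and 10.18 and soy livers 10.31, 10.19 and 10.35, a change of 0.40 (SE 0.14, 95% interval 0.06 to 0.73, adjusted p = 0.349). The groups did not overlap, but control 3 lay only just under soy 2. The difference was 0.57 within slide 1 and 0.17 within slide 3. Counts of this kind are common here, since 13.3% of the genes well above background on all arrays were higher in soy without overlap and 12.2% lower, beside 2 and 0 of the 9.

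Entry into the pathway, by Hmgcs1, had the widest range of the 9 genes over the 6 arrays. That rested on the soy livers. Among control livers the SD was larger for Ggps1 (0.40), Pmvk (0.37), Sqle (0.32), Idi1 (0.26) and Mvd (0.26). Hmgcs1 (NM_145942) stood at 14.92, 14.59 and 15.00 in control 1, 2 and 3, and at 14.34, 15.51 and 15.64 in soy 1, 2 and 3. Soy 2 and soy 3 were thus above all controls, whereas soy 1 was the lowest of the 6 arrays. The change was 0.32 (SE 0.33, 95% interval -0.43 to 1.08, adjusted p = 0.754), and the SD was 0.72 in soy against 0.21 in control livers. Without soy 1 it was 0.74 (adjusted p = 0.172), without soy 2 0.15, without soy 3 0.087 and without control 2 0.20, and with slide as a block it was 0.034.

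The phosphorylation steps did not differ beyond the spread between arrays of the same diet. Mvk (NM_001306205) was 12.47, 12.80 and 12.42 in control and 12.32, 12.92 and 12.50 in soy livers, so the change was 0.017 (SE 0.18, 95% interval -0.40 to 0.43, adjusted p = 0.982). The sign of Mvk is not settled, as its dimmer probe (NM_023556) gave -0.060 and several alternatives turned it. Pmvk (NM_026784) was 14.57, 14.01 and 13.88 in control and 13.96, 14.35 and 14.41 in soy livers, with a change of 0.087 (SE 0.20, 95% interval -0.39 to 0.56, adjusted p = 0.906) and of 0.15 on its dimmer probe. Control 1 was its highest array and control 3 its lowest, so the control values enclosed all soy values.

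The isomerase and the prenyltransferases were alike in overlapping between the diets. For Idi1 (NM_145360) the control values were 14.34, 13.91 and 13.87 and the soy values 14.04, 14.23 and 14.04, a change of 0.065 (SE 0.15, 95% interval -0.28 to 0.41, adjusted p = 0.904). Here too the control arrays spanned the soy arrays. Fdps (NM_001253751) was 16.39, 16.07 and 16.35 in control and 15.75, 16.25 and 16.02 in soy livers, so the change was -0.26 (SE 0.16, 95% interval -0.63 to 0.098, adjusted p = 0.579). Soy 1 was its lowest array, and it was lower in soy within slide 1 (-0.48) and within slide 3 (-0.33), without soy 1 by -0.13 only and with slide as a block by -0.42.

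Ggps1, which feeds protein prenylation rather than sterols, had 5 probes. On the brightest (NM_010282) the control values were 10.15, 9.71 and 9.36 and the soy values 9.70, 9.73 and 10.28, a change of 0.17 (SE 0.23, 95% interval -0.38 to 0.71, adjusted p = 0.832). Soy 3 was highest and control 3 lowest, and both lie on slide 3, where they differed by 0.93, while the difference within slide 1 was -0.23. The other probes of Ggps1 differed by 0.058, -0.052, 0.16 and -0.032, so they differed in sign, and on each of them control 1 was the highest array. Sqle (NM_009270) was 13.47, 13.33 and 12.86 in control and 13.11, 13.50 and 13.31 in soy livers, so the change was 0.089 (SE 0.18, 95% interval -0.33 to 0.51, adjusted p = 0.889). Its lowest array was control 3, and the soy values lay among the controls or just above them.

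**Figure D2:**
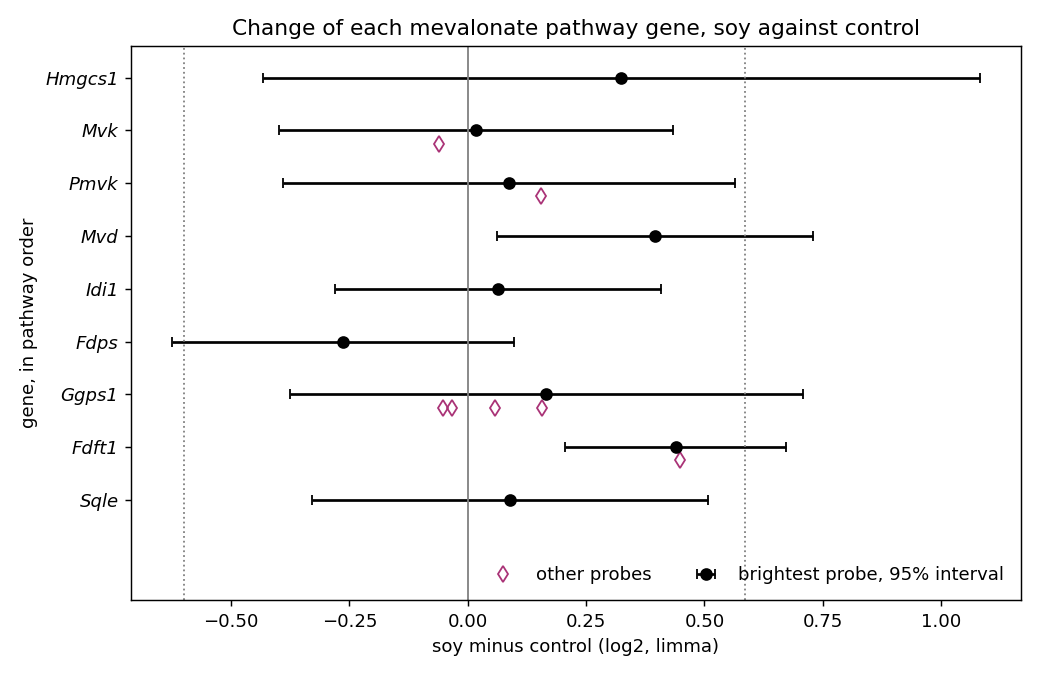
Soy minus control (log2, limma) for each gene in pathway order, with black points and bars for the brightest probe and its 95% interval, open diamonds for other probes, and dotted lines at the fold thresholds of 1.5 and 0.66. The intervals of 7 genes include 0 and those of Mvd and Fdft1 do not, before adjustment over all probes; no point reaches a dotted line.

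As a group the 9 genes had a median change of 0.089, with 8 above 0, where the 13514 genes had a median of -0.0050 and 49.1% above 0. That direction depended on control 3, without which the median was -0.023 with 3 of the 9 above 0. It was 0.30, 0.14, 0.23, 0.031 and 0.085 without control 1, control 2, soy 1, soy 2 and soy 3, with 7, 7, 8, 6 and 7 of the 9 above 0. Shifting each array to its 75th percentile moved the median of all genes to 0.11 and put the median of the 9 genes at 0.068, a difference of -0.040 from it. What the members shared more plainly was a wide spread between arrays of the same diet. The soy arrays lay on 3 slides and control 3 apart from control 1 and 2, so mouse and slide cannot be told apart. The pooled SD of the 9 genes within the groups had a median of 0.26, against 0.16 for the genes well above background on all arrays. Of the 9, 8 were above that value, Fdft1 being the exception.

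The within-slide differences ran in opposite directions for most of the pathway. On slide 1, soy 1 was below the mean of control 1 and 2 for 7 of the 9 genes, with a median of -0.29. On slide 3, soy 3 was above control 3 for 8 of the 9, with a median of 0.45. Of the 13514 genes well above background on all arrays, 6708 were above 0 on slide 1 and 7101 on slide 3, with medians of -0.0020 and 0.019. The sign differed between the slides for 6 of the 9 genes (Hmgcs1, Mvk, Pmvk, Idi1, Ggps1 and Sqle). Among the genes well above background on all arrays it differed for a smaller share, 37.4%. Mvd and Fdft1 were higher and Fdps lower in soy on both slides. Each of these values rests on 1 soy mouse, so slide and mouse cannot be told apart.

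**Figure D3:**
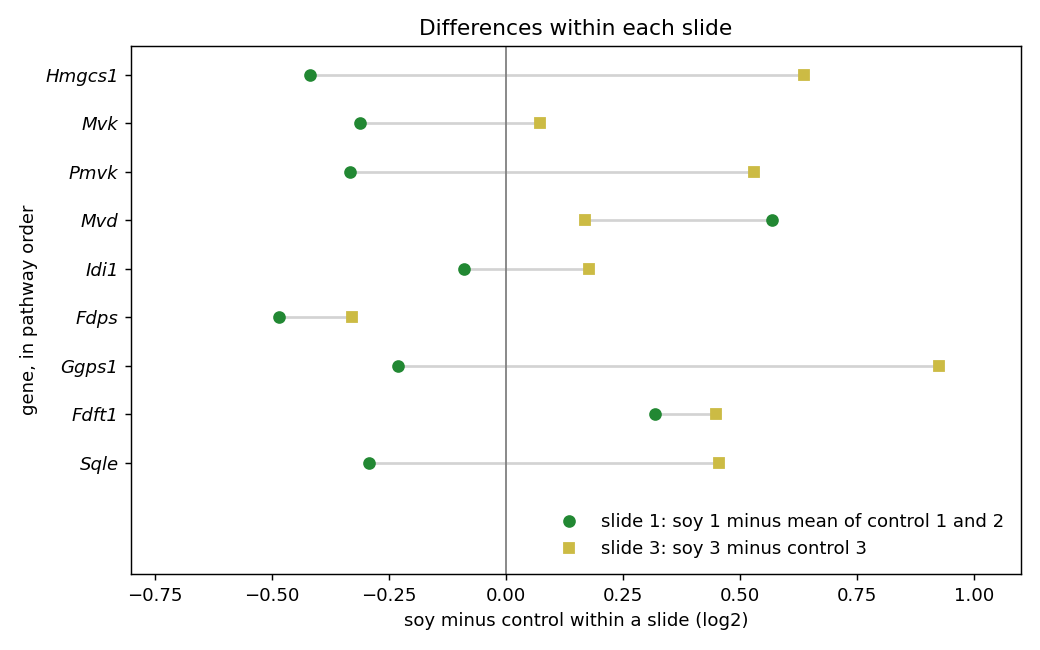
Soy minus control (log2) within slide 1 (circles, soy 1 minus the mean of control 1 and 2) and slide 3 (squares, soy 3 minus control 3) for each gene. Grey lines cross 0 for 6 genes, while both marks lie above 0 for Mvd and Fdft1 and below it for Fdps.

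Among themselves the genes followed a common pattern only in part. Over the 6 arrays the 36 pairs of genes had a median Pearson r of 0.35, from -0.40 (Fdps with Mvd) to 0.86 (Idi1 with Pmvk), and these points share arrays and scaling. The next highest were 0.84 for Pmvk with Ggps1, 0.80 for Pmvk with Sqle, 0.76 for Idi1 with Sqle, 0.67 for Mvd with Fdft1 and 0.65 for Sqle with Ggps1. Averaged over the 9 genes after scaling each to unit variance, the arrays stood at 0.36, -0.45 and -0.63 SD in control 1, 2 and 3 and at -0.53, 0.76 and 0.49 SD in soy 1, 2 and 3. Control 1 thus sided with soy 2 and soy 3, and soy 1 with control 2 and control 3. Of 13490 other genes, those whose values followed this average most closely over the 6 arrays were Lsm14b (r = 0.998), Fcgr2b (0.990), Eif3k (0.988), Atpif1 (0.987) and Ccr7 (0.984). Picked as the highest of 13490 values over 6 arrays, these are high by selection, and a link with the pathway was not tested. The 11 genes from squalene to cholesterol were scattered along this order, from Lss (0.80, place 309) and Cyp51 (0.80, place 317) to Nsdhl (-0.18, place 8669) and Tm7sf2 (-0.24, place 9218).

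Genes on either side of the pathway were taken from lists. Of the genes that supply acetyl-CoA and acetoacetyl-CoA, 4 of 5 were matched and 0 passed, with a median change of -0.23. The largest difference was in Acss2 (NM_019811), the cytosolic enzyme that makes acetyl-CoA from acetate, which was 14.59 in control and 13.23 in soy livers on average, without overlap, so the change was -1.36 (SE 0.28, adjusted p = 0.110). It was -1.45 within slide 1 and -1.01 within slide 3. Acly, which splits citrate to acetyl-CoA, differed by -0.50 (SE 0.18, adjusted p = 0.364) with overlapping groups, and the thiolase Acat1 by 0.28 (SE 0.13, adjusted p = 0.465).

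Of the 11 genes from squalene to cholesterol, 0 passed, 6 were above 0 and the median was 0.095. Nsdhl differed by -0.33 (SE 0.12, adjusted p = 0.329) and Hsd17b7 by 0.26 (SE 0.10, adjusted p = 0.396), which both act in removing methyl groups at the same carbon, and each without overlap. Tm7sf2, a sterol reductase, differed by -0.29 (SE 0.14, adjusted p = 0.504). Nearby genes of this list thus had changes of opposite sign and similar size.

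The branches that draw on farnesyl and geranylgeranyl diphosphate for dolichol, ubiquinone and protein prenylation held 14 listed genes, of which 0 passed, 7 were above 0 and the median was -0.028. Nus1, a subunit of the enzyme that makes dolichol chains, differed by 0.24 (SE 0.13, adjusted p = 0.519), Rabggtb, a subunit of the transferase that prenylates Rab proteins, by -0.24 (SE 0.12, adjusted p = 0.504), and Pggt1b, a subunit of a transferase that attaches geranylgeranyl groups to proteins, by -0.17 (SE 0.10, adjusted p = 0.592). The arrays overlapped for all 14 but Rabggtb, which was lower in soy. Of the genes well above background on all arrays, 13.3% were higher and 12.2% lower without overlap.

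Of 7 genes that control SREBP-2, 0 passed and the median was -0.064. Insig2, which retains the precursor in the endoplasmic reticulum, differed by 0.55 (SE 0.29, adjusted p = 0.536) with overlap. Scap, its escort to the Golgi, differed by -0.39 (SE 0.13, adjusted p = 0.291), and Srebf2, the gene of SREBP-2 itself, by 0.33 (SE 0.14, adjusted p = 0.433). Without overlap, 1 of the 7 genes was higher in soy (Insig1, 0.31, adjusted p = 0.405) and 3 were lower (Scap, Mbtps2 at -0.21 with adjusted p = 0.478, and Stard4 at -0.31 with adjusted p = 0.439), beside 13.3% and 12.2% of the genes well above background on all arrays.

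**Figure D4:**
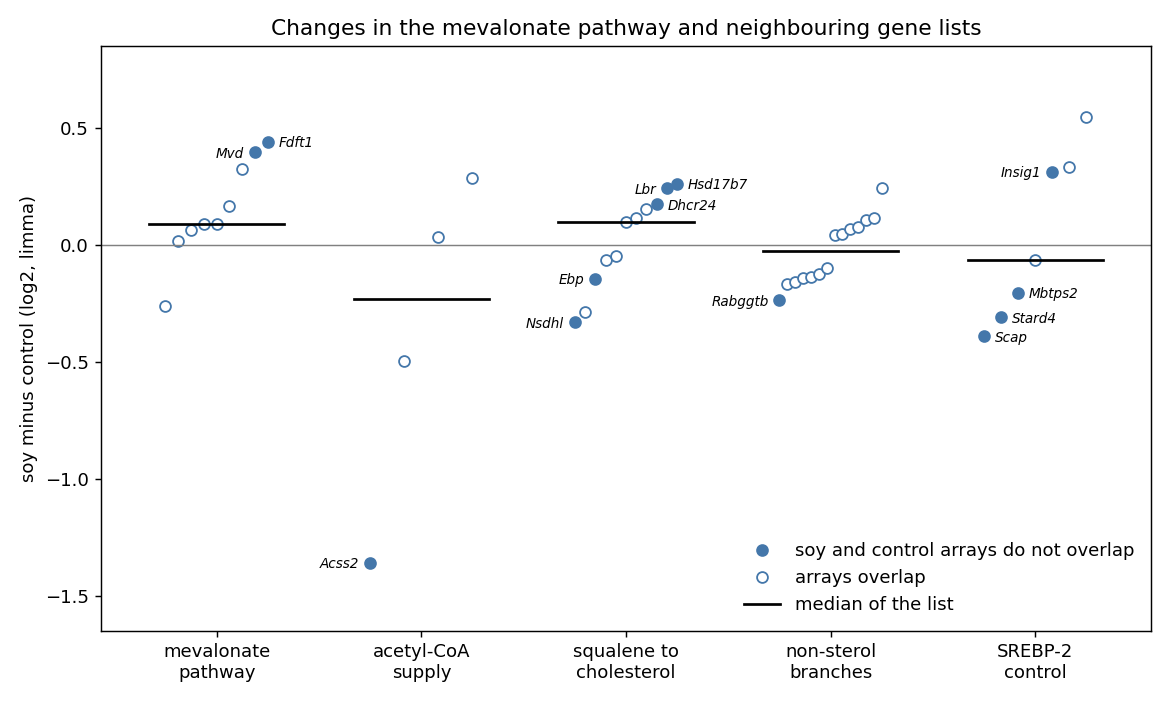
Soy minus control (log2, limma, brightest probe) for the genes of the mevalonate pathway and 4 neighbouring lists, with filled points where soy and control arrays do not overlap, named where filled, and black lines for list medians. The medians lie between -0.23 and 0.095, and Acss2 at -1.36 stands apart.

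Summed signals of cell type markers differed between the groups as well, and their part in the results above was not tested. The summed signal of the 8 hepatocyte markers was 2058521, 2146383 and 2150473 intensity units in control 1, 2 and 3 and 1964259, 1932191 and 1856085 in soy 1, 2 and 3. It was lower in soy without overlap (ratio of means 0.905), and all 8 changes were below 0, though 0 passed. This sum rested mostly on Alb (-0.14), Apoa2 (-0.10) and Serpina1c (-0.033), each of which overlapped between the diets. Of the 8, only Cps1 (-0.47, adjusted p = 0.176) was lower without overlap. The 6 endothelial markers, brightest in Clec4g, summed to 41922, 42224 and 41648 in control and 43334, 49356 and 45350 in soy livers (ratio 1.097), again without overlap. The sum followed Clec4g, which differed by 0.20, while 3 of the 6 were above 0 and 3 below, among them Lyve1 at -0.66 (adjusted p = 0.655). Pancreas markers, brightest in Cela1, summed to 34863, 50286 and 42407 in control and 26401, 31178 and 23460 in soy livers (ratio 0.635), with 0 of 6 passing. Of these, Prss2, Pnlip and Cpa1 were well above background on 2 control arrays and on 0 soy arrays, and Krt7, Cftr, Des and Fntb of other lists were so on 3 control and 0 soy arrays, beside the smaller share of all spots above background on the soy arrays. The sums overlapped for the Kupffer cell (6 genes, brightest Cd5l), stellate cell (6, Dcn), cholangiocyte (6, Spp1), adipocyte (6, Fabp4) and red cell and neutrophil markers (6, Hba-a1), with 0 genes passing in each. All 6 red cell and neutrophil markers were above 0, the largest being S100a8 (0.58, adjusted p = 0.445) and S100a9 (0.62, adjusted p = 0.482), as were 5 of 6 Kupffer cell markers (median 0.24), with Marco at -0.73 (adjusted p = 0.589). Of the stellate cell markers 5 of 6 were below 0, with Reln at -0.23, Dcn at -0.083 and Lrat at -0.029, while Des was at 0.0058. The collagen genes Col1a1 (-0.99, adjusted p = 0.317) and Col3a1 (-0.94, adjusted p = 0.271) were lower in soy without overlap. So were 12.2% of the genes well above background on all arrays. The differences of Col1a1, Col3a1, S100a8, S100a9 and Marco were larger in size than that of any of the 9 genes. Of the defining markers of these cells, Epcam, Adipoq, Plin1 and Ngp were well above background on no array.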

How the data were processed

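Arrays of 1 colour were scanned by the authors, and the deposited scanner files (Feature Extraction 11.5.1.1, per the file headers) give the median intensity per spot with its local background, unscaled. The deposited series table gives log2 values, which were within 0.056 of those computed here. Starting from the median signals that the methods name, intensities were corrected with normexp (offset 50), stripped of control spots, quantile normalized and put on the log2 scale. Outlier spots were dropped and repeated spots averaged. Soy and control were compared with limma 3.58.1 in R 4.3.3 over all probes, with Benjamini-Hochberg adjustment, and tables were built in Python 3.11.15. The number of arrays limits the precision. Symbols came from RefSeq accessions (GRCm38.p6, 32994 probes, 58.3%), whereas the arrays were annotated on mm9, so no probe positions are given. The brightest probe stands for a gene. All probes of the 9 genes are given, and from each neighbouring list the 3 largest changes among detected genes; the genes named for not overlapping, the cell type markers other than the brightest and the genes of sterol synthesis placed by likeness were chosen after their values were seen. Some members of the lists are not reported here and were left out of the lists' counts and medians. The members and lists were chosen with earlier results of these data known. Alternatives covered background, scaling, filters, blocks, the deposited log2 values and each array left out. The fit was tested on simulated data.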

Additional observations from a re-analysis of the deposited data

How the results depend on the processing

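None of the 9 genes passed under any alternative that gave a test, which the mean of a gene's probes did not, and the median of their changes lay between 0.034 (slide block) and 0.092 (processed signal, where the median of all genes was 0.090) with all arrays in. The direction of single genes was less settled. Mvk turned to -0.0052 with the 75th-percentile shift, -0.021 with the mean of its probes and -0.15 with slide as a block. With 1 array left out, the change ran from -0.024 to 0.37 for Ggps1, from -0.022 to 0.22 for Idi1, from -0.15 to 0.15 for Mvk, from -0.049 to 0.30 for Pmvk and from -0.091 to 0.21 for Sqle, and the median of the 9 from -0.023 to 0.30. In all, 13 of 162 single-gene values changed sign.

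The number of probes passing, 198, depended on the setting, and the cause was not tested. It was 299 with the 75th-percentile shift, 77 with an offset of 16, 493 with probes well above background only, 24 with slide as a block, and from 23 (without soy 3) to 199 (without control 3) with 1 array left out. The processed signal gave 13138, with 11924 higher and 1214 lower in soy against 118 and 80. With the replicate number as a block it was 77. Same-numbered arrays deviated from their group means with correlations of 0.116, -0.0574 and 0.106 for numbers 1, 2 and 3. These low values gave no sign of pairing by number, but cannot exclude it, since arrays of different number were not compared. The arrays numbered 1 share slide 1 and those numbered 3 share slide 3.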
